A study of Mus musculus with 16 samples.

Results

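BMAL1 peaks were called at 396 genomic intervals in the liver of misaligned female mice at ZT0 and in none of the other 7 BMAL1 libraries. These private intervals are those marked as called in that library alone in the authors' deposited table of merged peaks. They were 5.62% of the 7043 merged intervals of the study and 29.9% of the 1323 intervals called in the library (18.8% of all merged intervals). The set was chosen by the peak calls of all 8 libraries, so the absence of a call elsewhere and the strength of the peaks in the female misaligned ZT0 library are descriptions, not findings. The count rests largely on 1 other library: without the calls of male misaligned ZT12 it was 703.

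BMAL1 binding was profiled by ChIP-seq, which sequences the DNA recovered with an antibody to a protein, in the liver of C57bl6 mice of both sexes. Control and misaligned animals of each sex were sampled at ZT0 (lights on) and ZT12 (lights off), which gave 8 groups with 1 BMAL1 library each. The mice were 8 to 16 weeks old and were kept under 12 h light and 12 h dark. All groups, the controls included, ate a high-fat diet with 42% of its energy from fat, and each library was a pool of 3 to 4 livers. The labels name no genetic change, and the schedule behind "misaligned" is not described in the sources used here. No RNA was measured, so the tissue could not be checked against its marker genes. With 1 library per group there is no replicate error, no p-value is given, and sex, schedule, time and library cannot be told apart. The exact Clopper-Pearson 95% intervals below cover counting error only.

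BMAL1 is a basic helix-loop-helix transcription factor that pairs with CLOCK and binds E-boxes, of which CACGTG is the canonical form. The pair drives the Per, Cry and Rev-erb genes, whose products feed back on it, and in liver it also binds near many genes of lipid and glucose metabolism. Binding of BMAL1 to mouse liver chromatin is known to peak in the light phase.

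Of the private intervals, 131 (33.1%) overlapped a promoter window, defined as 250 bases before to 50 after a RefSeq transcription start (GRCm38.p6). The 6 promoters below lay under the strongest private peaks with both a summit in the window and a canonical E-box upstream of the start, and are shown because they hold the motif BMAL1 is known to bind. Each line gives the 250 bases before the start, 5′ to 3′ on the gene's strand, with CACGTG in capitals. P2ry2 (chr7:101011999-101012248, minus strand) encodes a nucleotide receptor of the cell surface. Fkbp5 (chr17:28486150-28486399, minus strand) encodes a co-chaperone of the glucocorticoid receptor. Pfkfb2 (chr1:130715822-130716071, minus strand) encodes an enzyme that sets the level of fructose 2,6-bisphosphate, a regulator of glycolysis. Galt (chr4:41755267-41755516, plus strand) encodes an enzyme of galactose use. Ppa1 (chr10:61648371-61648620, plus strand) encodes an inorganic pyrophosphatase. The start of 1110002L01Rik (chr12:3426748-3426997, minus strand) faces that of Asxl2, a chromatin regulator.
P2ry2: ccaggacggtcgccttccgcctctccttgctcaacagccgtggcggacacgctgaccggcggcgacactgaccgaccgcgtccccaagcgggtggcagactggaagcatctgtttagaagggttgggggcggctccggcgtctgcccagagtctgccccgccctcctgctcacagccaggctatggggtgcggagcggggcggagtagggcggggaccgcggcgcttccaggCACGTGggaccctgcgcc
Fkbp5: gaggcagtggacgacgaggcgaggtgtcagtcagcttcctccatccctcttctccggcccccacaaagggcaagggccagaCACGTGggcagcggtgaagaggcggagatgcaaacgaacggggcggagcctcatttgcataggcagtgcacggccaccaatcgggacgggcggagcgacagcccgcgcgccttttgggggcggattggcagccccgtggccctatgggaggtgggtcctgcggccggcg
Pfkfb2: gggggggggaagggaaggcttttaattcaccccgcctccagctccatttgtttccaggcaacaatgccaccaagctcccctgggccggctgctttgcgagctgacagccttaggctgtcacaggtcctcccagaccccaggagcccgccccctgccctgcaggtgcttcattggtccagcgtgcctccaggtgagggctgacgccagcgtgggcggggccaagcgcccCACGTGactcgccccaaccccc
Galt: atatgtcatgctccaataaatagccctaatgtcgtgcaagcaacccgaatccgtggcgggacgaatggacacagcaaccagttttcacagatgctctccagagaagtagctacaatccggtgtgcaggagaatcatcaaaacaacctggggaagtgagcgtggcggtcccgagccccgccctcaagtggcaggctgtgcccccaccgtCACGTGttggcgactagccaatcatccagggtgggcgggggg
Ppa1: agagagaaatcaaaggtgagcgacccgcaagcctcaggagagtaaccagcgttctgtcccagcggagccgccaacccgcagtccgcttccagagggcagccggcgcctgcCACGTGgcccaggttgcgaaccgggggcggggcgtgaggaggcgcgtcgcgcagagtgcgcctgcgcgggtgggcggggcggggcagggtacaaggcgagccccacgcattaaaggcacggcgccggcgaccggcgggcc
1110002L01Rik: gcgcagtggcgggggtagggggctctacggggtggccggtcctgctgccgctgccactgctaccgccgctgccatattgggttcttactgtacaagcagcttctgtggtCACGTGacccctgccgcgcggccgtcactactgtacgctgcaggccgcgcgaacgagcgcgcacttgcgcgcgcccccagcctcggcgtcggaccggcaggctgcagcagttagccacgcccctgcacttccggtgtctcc

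Among private peaks with their summit in a RefSeq window, the strongest without this motif were at Srebf1 (chr11:60210472-60210721, minus strand), the lipogenic transcription factor SREBP1, and Metrnl (chr11:121702177-121702426, plus strand), which encodes a secreted protein. Their 250 bases are shown for comparison and hold no capitals because CACGTG was not found.
Srebf1: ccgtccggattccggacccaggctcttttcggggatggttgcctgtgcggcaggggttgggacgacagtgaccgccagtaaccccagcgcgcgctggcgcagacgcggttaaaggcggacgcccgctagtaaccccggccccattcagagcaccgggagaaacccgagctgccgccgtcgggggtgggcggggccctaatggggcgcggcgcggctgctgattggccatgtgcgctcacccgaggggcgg
Metrnl: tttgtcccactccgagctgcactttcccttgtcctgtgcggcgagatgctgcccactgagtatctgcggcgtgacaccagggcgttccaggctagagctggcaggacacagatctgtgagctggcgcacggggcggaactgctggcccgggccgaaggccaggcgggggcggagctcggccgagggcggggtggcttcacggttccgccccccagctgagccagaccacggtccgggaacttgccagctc

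In the first 6 promoters the E-box began 18 bases before the start at P2ry2, 22 at Pfkfb2, 42 at Galt, 140 at Ppa1, 141 at 1110002L01Rik and 169 at Fkbp5. The peak summit lay 7.5 bases from the centre of the E-box at Ppa1, 8.5 at P2ry2, 30.5 at Fkbp5, 32.5 at Pfkfb2, 43.5 at 1110002L01Rik and 50.5 at Galt. Over all private intervals with the motif in an overlapped window (28 intervals and 31 genes), the median distance from the summit was 68 bases, and 20 lay within 100 bases. The motif lay inside the peak at 23 of the 28, and the largest distance was 702.5 bases. The windows were chosen by their overlap with a peak, so short distances are a description and no finding.

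The private peaks were mostly weak within their own library. Their -log10 q, the peak caller's measure of significance, ran from 1.32 to 33.0 with a median of 3.70. The shared peaks of the same library had a median of 9.69. The median fold enrichment over local background was 3.35 for private peaks and 4.36 for shared ones. At the summit, private peaks had a median of 25 overlapping fragments over a background of 6.75, and shared peaks had 37 fragments. A -log10 q of at least 10 was reached by 20 private peaks (5.05%) and by 444 of 927 shared peaks (47.9%).

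Strength followed the number of libraries that called an interval. The median -log10 q was 6.38 for the 365 intervals called in 1 other library, 10.1 for the 378 called in 2 or 3, and 25.6 for the 184 called in 4 to 7. When the library's intervals were ranked by -log10 q and divided into 5 bins, private intervals made up 1.89% of the strongest bin, 9.09%, 22.6% and 48.9% of the next bins, and 67.2% of the weakest. The set is therefore drawn from the lower part of the list, where most calls rest on few fragments.

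**Figure D1:**
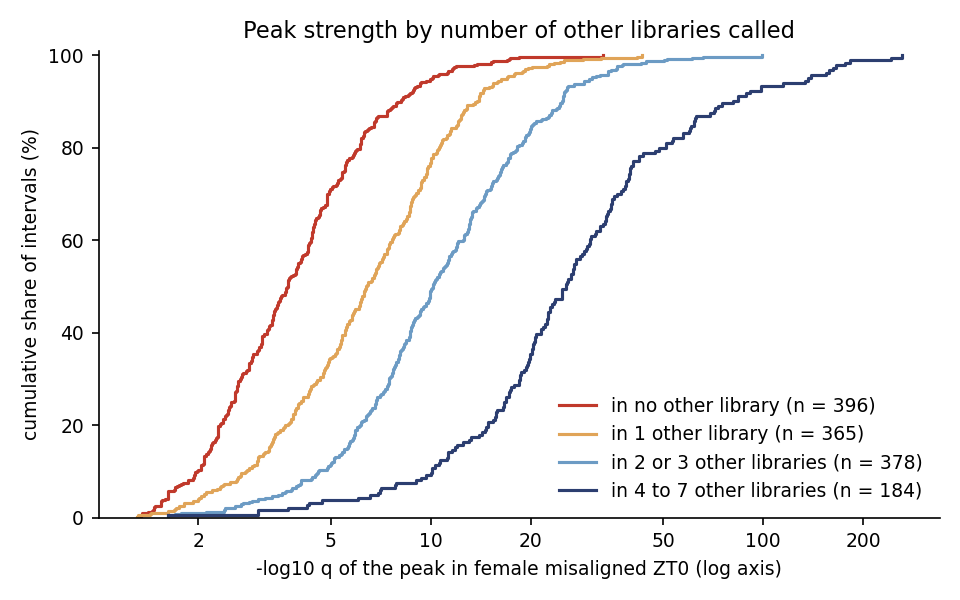
Cumulative share of female misaligned ZT0 intervals (y axis, %) by the -log10 q of the peak in that library (x axis, log scale), with 1 line for each number of other libraries that called the interval. The line for intervals in no other library (n = 396, median 3.70) lies left of the lines for 1 (6.38), 2 or 3 (10.1) and 4 to 7 other libraries (25.6).

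The strongest private peak (chr17:8348826-8349249) was annotated to an intron, 8298 bp from the start of Prr18, its nearest gene by the authors' annotation. RefSeq places Gm46592, Prr18 and T2 in reach of 10 kb, and which gene holds the intron was not determined. The peak had 59 fragments over a background of 5.88, a fold of 8.72 and a -log10 q of 33.0. Srebf1 followed with 48 fragments over 7.41 and a -log10 q of 18.5, then P2ry2 with 44 over 6.54 and 17.3. A peak over the microRNA gene Mir6715 (chr19:55192507-55192798) reached 17.2, and one in an intron of Wdfy2, annotated to n-R5s47 (chr14:62884198-62884675), reached 16.98. Only Prr18 stood well above the others, since the next 4 lay between 16.98 and 18.5.

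**Figure D2:**
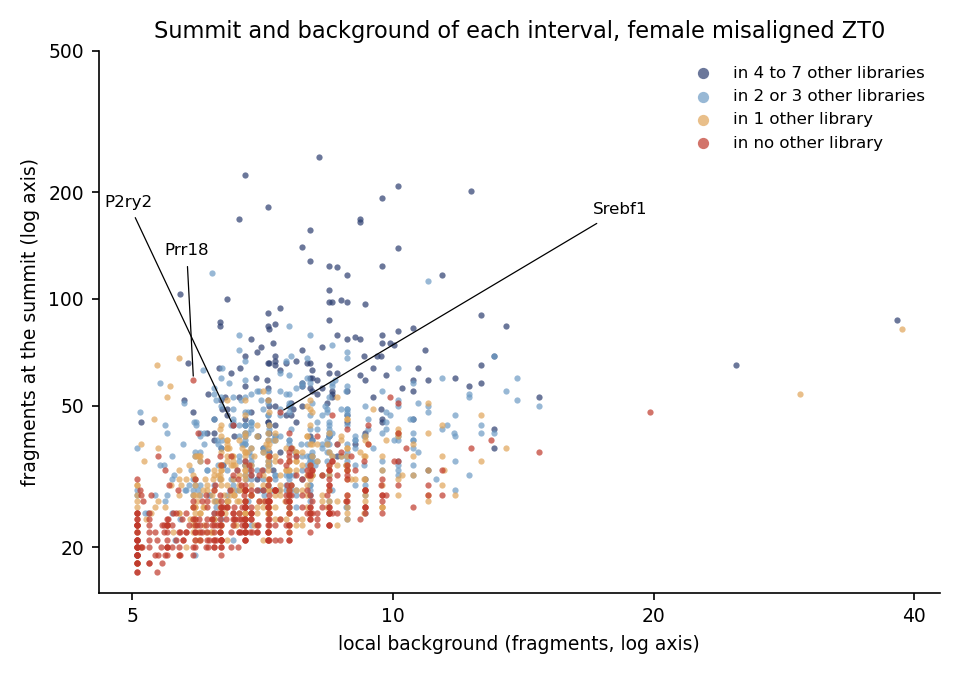
Fragments at the summit (y axis, log scale) against local background (x axis, log scale) for the female misaligned ZT0 intervals, coloured by the number of other libraries that called them. Private intervals lie along the lower edge, with Prr18 (59 fragments), Srebf1 (48) and P2ry2 (44) labelled, and 24 intervals with a background of 40 fragments or more, 3 of them private, are not drawn.

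The rest of the 15 strongest were spread over genes of different kinds. G3bp1, a stress granule protein, had a peak at chr11:55468128-55468453 with a -log10 q of 15.3. Celsr2, an adhesion receptor of the cadherin family, had one at chr3:108401766-108402055 with 13.5. Ppl, the cytoskeletal linker periplakin, had one at chr16:5136386-5136880 with 11.9. Metrnl (11.7), Birc2 (11.6), an apoptosis inhibitor, Fkbp5 (11.3) and Cldn14 (11.3), a tight junction claudin, had peaks at their promoters. The other 3 were annotated to AL928567.1 in an intron of Bahcc1 (15.2), to Gm10655 (13.7) and to Gm36933 in an intron of Itpkb (11.7). Further promoter peaks among the 10 strongest within 1 kb of a start, by the authors' distance, were at Ube2n (10.6), a ubiquitin-conjugating enzyme, and Smc6 (10.5), a subunit of a DNA repair complex. The others were at Nxpe3 (10.1) and Emc10 (9.97), a subunit of a membrane protein insertion complex. Ube2q2 (11.2) was not in this ranking, being listed at -45684 bp, but its summit lay 215 bp before a RefSeq start.

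Klhl21, an adaptor of a ubiquitin ligase, was the nearest gene of a pair of private peaks, in an exon (7.55) and an intron (2.57). Gm27533 also had a pair (5.23 and 4.87). Among the 5 widest private peaks were those of Dusp6 (947 bp, -log10 q 1.46), a phosphatase of ERK, and of 4930412L05Rik over a start of Abca1, a cholesterol exporter (706 bp, 1.62).

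At the threshold of the set, the 3 weakest private peaks were at Gm13446 (1.35), Dhx40 (1.34) and Gm26375 (1.32). Just outside it, the strongest intervals called in exactly 1 other library were at Mllt1 (43.3), Gga2 (41.6), Rufy4 (32.4), Maf (28.6) and 4833418N02Rik (25.2), and for each of these the other library was male misaligned ZT12. That library was the partner of 307 of the 365 intervals called in 1 other library, and male misaligned ZT0 of 50. Of all 7043 merged intervals, male misaligned ZT12 called 5540 and male misaligned ZT0 called 1860. The partner counts are therefore no result about a likeness of these libraries.

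The lists differed greatly in length, and this bears on which sites count as private. The male misaligned ZT12 library had 5542 peaks, male misaligned ZT0 had 1864, female misaligned ZT0 had 1330, and the other 5 had 141 to 373. The lowest -log10 p in a list ranged from 4.15 to 5.52, and 364 private peaks (91.9%) had a -log10 p above the highest of these. The lowest in female misaligned ZT0, which chose the set, was 4.75, so this share is a description. A -log10 p in that library does not give the value of the same site in another. The sequencing depth is not known from the peak lists, and its part in the private calls was not tested.

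By the authors' annotation, 178 private intervals (44.9%, interval 39.98 to 49.997%) were at promoters, 104 (26.3%) in introns, 66 (16.7%) between genes, 31 (7.83%) in exons and 17 (4.29%) at transcript ends. Shared intervals of the library were at promoters in 61.7% (58.5 to 64.8%). The intervals private to male misaligned ZT0 were at promoters in 31.0% (27.8 to 34.3%), and those private to male misaligned ZT12 in 26.4% (25.03 to 27.8%). By this annotation the female misaligned ZT0 private set lay between the library's shared intervals and the private intervals of the male misaligned lists, with exact intervals that do not overlap. The sets private to the male lists were not matched to it for peak strength. Within 1 kb of a start by the authors' distance, the shares were 40.2% (35.3 to 45.2%) of private and 47.9% (44.6 to 51.2%) of shared intervals, which overlap, and 27.5% (24.5 to 30.7%) and 23.2% (21.9 to 24.6%) of the sets private to male misaligned ZT0 and ZT12.

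The share annotated as promoter differed with strength, but the share within 1 kb of a start differed little. The first was 54.0% (46.8 to 61.1%) in the 198 stronger private intervals and 35.9% (29.2 to 43.0%) in the 198 weaker ones. The second was 41.4% (34.5 to 48.6%) and 38.9% (32.1 to 46.1%). Within the -log10 q range of the middle 50% of private peaks, 43.9% (36.9 to 51.2%) of private and 53.8% (46.0 to 61.5%) of shared intervals were at promoters, and these intervals overlap.

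**Figure D3:**
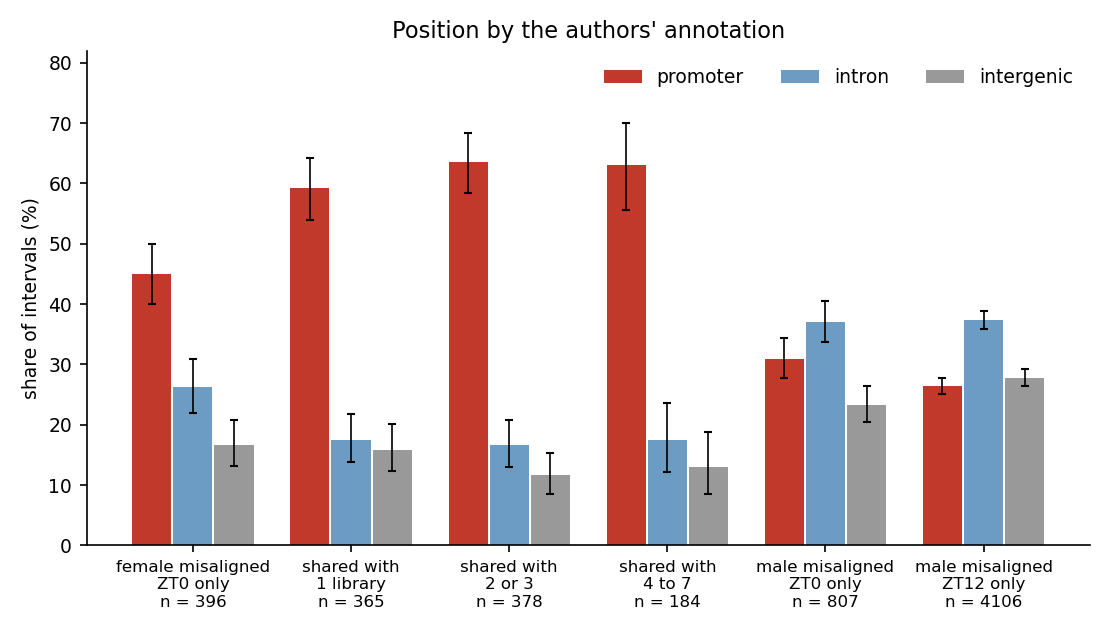
Share of intervals (y axis, %) at promoters, in introns and between genes by the authors' annotation, for each set of intervals on the x axis, with exact 95% intervals as error bars. Promoters took 44.9% of the female misaligned ZT0 private set, against 31.0% and 26.4% of the sets private to the male misaligned libraries.

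The distance to a start depended on the transcript used. By the authors' distance, 159 private intervals lay within 1 kb of a start, and the median distance was 3424.5 bp. By the nearest RefSeq start, 177 of 389 (45.5%, 40.5 to 50.6%) did, against 55.3% (51.9 to 58.6%) of shared intervals. These exact intervals do not overlap, unlike those by the authors' distance. The Fkbp5 peak was 31234 bp from the authors' start but had its summit 136 bp before a RefSeq start. Likewise Srebf1 was listed at -7922 bp and Msmo1, a sterol oxidase of cholesterol synthesis, at -2614 bp from the authors' start, with summits at -113 and -84 bp from a RefSeq start.

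CACGTG, which reads the same on both strands, was present in 33 of the 170 promoter windows under private intervals (19.4%, 13.8 to 26.2%), against 7.15% of all 32851 windows. The private intervals overlapped 0.517% of all windows. Windows under shared intervals of the library held it in 32.2% (28.5 to 36.1%), with 29.1% (23.3 to 35.3%) where 1 other library called the interval and 43.5% (34.3 to 53.0%) where 4 to 7 did. Windows under intervals private to male misaligned ZT0 held it in 15.1% (10.7 to 20.4%) and those private to male misaligned ZT12 in 20.1% (17.7 to 22.7%). The exact interval of the private share lay below that of all shared windows, but overlapped that of windows shared with 1 other library and those of both male private sets. Neighbouring windows can hold the same motif, and the 33 windows lay under 28 of 131 intervals (21.4%). The exact intervals treat windows as independent and so may be too narrow.

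Windows under private intervals were rich in CpG, with a median of 28 CpG against 7 over all windows. This was not particular to them. The median was also 28 under shared intervals, and 24.5 and 22 under those private to male misaligned ZT0 and ZT12. Among windows with at least 20 CpG the E-box was in 19.3% (13.0 to 26.9%) of those under private intervals and in 11.6% (11.0 to 12.3%) of all. Within the -log10 q range of the middle 50% of private peaks it was in 22.9% (14.4 to 33.4%) of private and 30.9% (22.4 to 40.4%) of shared windows, and these intervals overlap. Peaks over a window with the motif were of like strength to those over a window without it (median -log10 q 4.31 and 4.398).

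**Figure D4:**
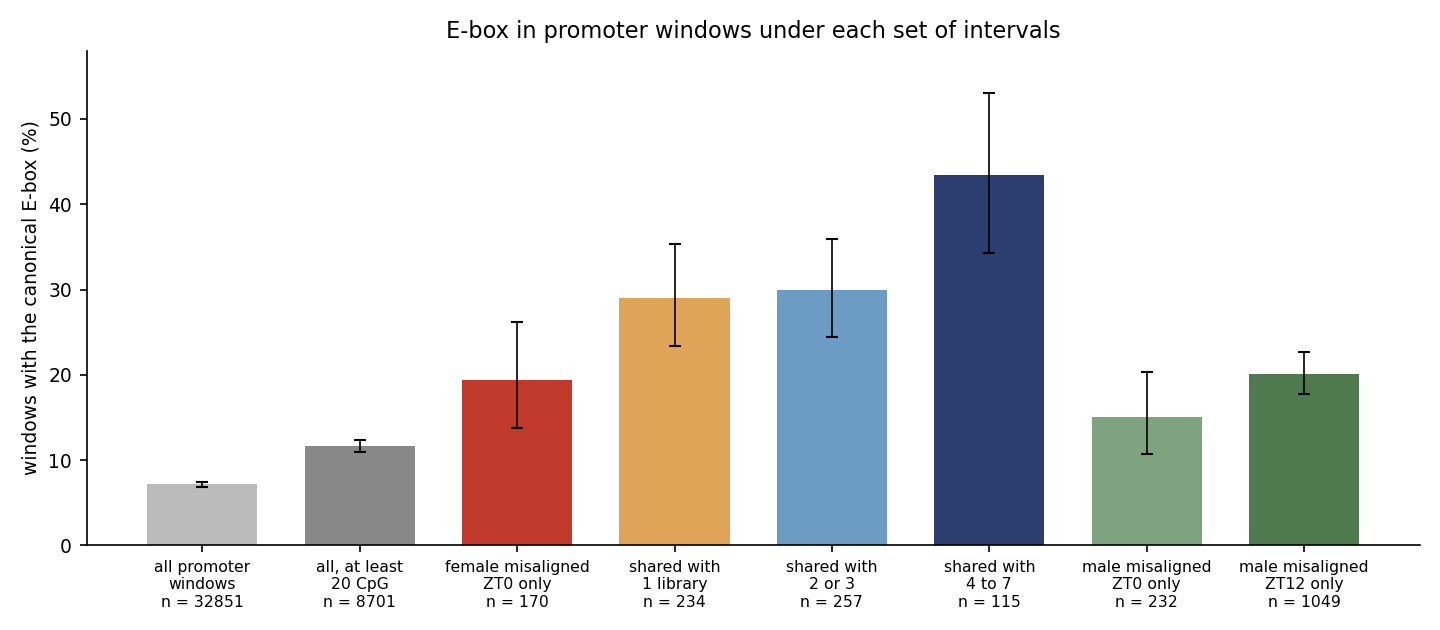
Share of promoter windows that hold CACGTG (y axis, %) for all RefSeq windows, all windows with at least 20 CpG, and the windows under each set of intervals, with exact 95% intervals as error bars. The female misaligned ZT0 private set (19.4%) lies above all windows (7.15%) and below the intervals shared with 4 to 7 other libraries (43.5%).

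Other motifs were counted on both strands in the same windows. The ETS core CCGGAA was in 34.1% of private windows and 14.9% of all, but in 35.6% and 30.5% at 20 CpG or more. CCAAT was in 38.2% and 37.4%. CACGTT was in 9.41% and 4.68%, and in 10.4% and 5.61% at 20 CpG or more. The CRE TGACGTCA was in 3.53% and 1.79%, and in 3.70% and 3.84% at 20 CpG or more. The D-box TTATGTAA and the NRF1 motif were in 0 of 170 private windows, which allows a share of up to 2.15% (exact interval), with 0.938% and 0.971% of all windows holding them. At 20 CpG or more the NRF1 motif was in 0 of 135 private windows and in 2.53% of all. The exact interval of the private share reached 2.70% and includes that value. Windows under shared intervals held CCGGAA in 28.2%, CACGTT in 10.2% and the NRF1 motif in 3.14% (1.90 to 4.85%). Those private to male misaligned ZT0 held them in 35.8%, 9.91% and 5.17% (2.70 to 8.86%). Those private to male misaligned ZT12 held them in 29.6%, 8.77% and 2.19% (1.39 to 3.27%). For NRF1 over all windows of a set, only the male misaligned ZT0 interval lay above the 2.15% bound.

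Among the other genes with an E-box under a private peak, chosen here after their values were seen, were Rara (-log10 q 4.66), a retinoic acid receptor, Atp6v0b (5.06), a subunit of the lysosomal proton pump, Nagpa (6.86), an enzyme of lysosomal enzyme sorting, Stub1 (3.54), a chaperone-linked ubiquitin ligase, and Eif1b (4.34), a translation initiation factor. All 5 peaks had 24 to 34 fragments at the summit.

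A small number of genes of the fixed lists lay near a private interval, at a share above that of all protein-coding genes. The lists were chosen with earlier results of these data known. Of 373 genes in 22 lists of clock, metabolic, hormone, stress and cell type genes, 7 (1.88%) were the nearest gene of a private interval within 10 kb, against 0.827% of all 21896 protein-coding genes. None of 22 core clock genes, 12 clock output genes or 17 Kruppel-like factors was among them, which at a background of 0.827% is no result about these lists. A shared interval of the same library was near 13, 10 and 7 of them, against 2.16% of all protein-coding genes. The 7 genes were spread over 7 lists, 1 in each, and the other 15 lists had none, the lists of male-biased liver genes, hepatocyte secretory genes and the 5 non-hepatocyte cell types included. With so few genes per list and the same background of 0.827%, this is no result about those lists either.

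Of these 7, Srebf1 (18.5) and Msmo1 (5.99) act in lipid and sterol synthesis. Ppara (4.43) is the nuclear receptor of fasting fat oxidation. Hspa8 (6.29) is a constitutive heat shock chaperone, Vegfa (4.52) a hypoxia-induced growth factor and Crp (3.75) an acute phase protein. Trim24 (3.71), a transcription cofactor, was the gene from the female-biased list. When a private interval in the gene or within 10 kb of it was counted by RefSeq, 13 list genes (3.49%) had one, against 2.32% of all protein-coding genes. Among those added were Acaca, the first enzyme of fatty acid synthesis, Ppargc1b, Ghr, Fkbp5 and Cd68, whose nearest private peaks ran from a -log10 q of 1.45 to 11.3. Cd68, a gene of the Kupffer and myeloid list, was counted through the private peak at the Eif4a1 promoter (1.45).

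Within 10 kb, some private peaks lay beside a peak of another library and most did not. Another library had a peak within 1 kb of 31 private intervals (7.83%) and within 10 kb of 90 (22.7%), and the median gap was 39440.5 bp. Within 50 kb there were 224 (56.6%) and within 100 kb 291 (73.5%). The same distances were not counted for other sets of intervals, so these shares are no result about the private set. Within 10 kb, male misaligned ZT12 had a peak beside 77, male misaligned ZT0 beside 36, male control ZT0 beside 14, and each of the other 4 libraries beside 0 to 5. This order is also that of the longest lists.

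The Ppara interval (chr15:85734537-85734834) was 182 bp from an interval called in 6 libraries, the female misaligned ZT0 library included. At that neighbouring interval the -log10 q was 14.7 in female misaligned ZT0, 21.0 in female misaligned ZT12, 18.8 in male control ZT0, 14.2 in male control ZT12, 29.5 in male misaligned ZT0 and 33.6 in male misaligned ZT12. The private Ppara peak was thus the weaker of a pair. Hspa8 lay 192 bp and G3bp1 914 bp from a male misaligned ZT12 peak (4.43 and 4.98). Ppl lay 1164 bp from a male misaligned ZT12 peak (21.7), with peaks of male misaligned ZT0 (17.4) and male control ZT0 (6.83) at the same place. For Prr18 the nearest was a male misaligned ZT12 peak 4826 bp away (6.05). By contrast, P2ry2 was 52605 bp, Birc2 166106 bp and Cldn14 217710 bp from the nearest peak of another library.

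**Figure D5:**
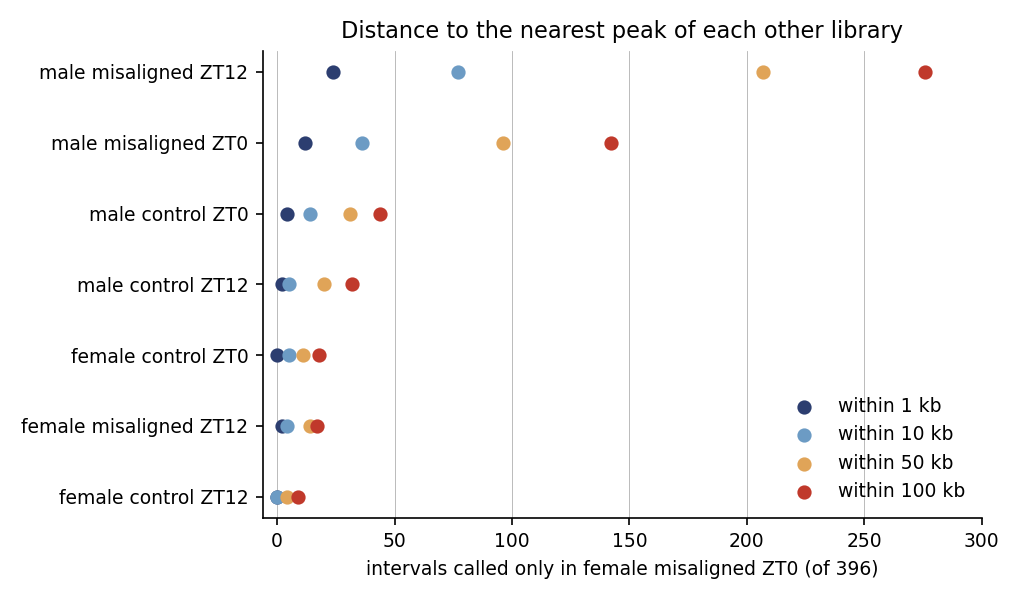
Number of the 396 private intervals (x axis) with a peak of each other library (y axis) within 1, 10, 50 and 100 kb (point colours). Male misaligned ZT12 has the most at each distance (24, 77, 207 and 276).

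High local background, 5-fold or more above the list's minimum, was found at 3 private intervals. They lay in the mitochondrial genes mt-Nd1 (1415 fragments over 1166, fold 1.21) and mt-Nd2 (1206 over 1063, fold 1.13), and at Gm26375 (144 over 100.4, fold 1.43). The other 393 had no such background.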

How the data were processed

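BMAL1 ChIP-seq was analysed in 8 liver libraries, 1 per group; the 8 IgG libraries were not used here. Per the submitters' processing notes, BWA 0.7.17-r1188, MACS2 2.2.7.1 and the build GRCm38 were used; the q threshold, genome size and use of IgG are not given in the sources used here. The deposited peak lists give a score, a fold enrichment (a ratio to local background), and -log10 p and q values, all per library. The deposited merged table gives each interval's calls, annotation and distance to a start; its other 48 per-sample columns were not used.

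Private intervals were those called in the female misaligned ZT0 library alone. The set and the gene lists were chosen with earlier results of these data known. Fragments at the summit and local background were recovered from the fold and -log10 p (relative tolerance 0.0001), with code tested on simulated data. No genome was given, so motifs were counted in RefSeq promoter windows (GRCm38.p6); windows overlapped by at least 1 bp were taken. Named genes were those of the 15 strongest private peaks without high background, list genes within 10 kb, the 10 strongest within 1 kb of a start, genes with several private peaks, peaks of high background (5 times the lowest), the 3 weakest, the 5 widest, and the 5 strongest intervals shared with 1 library; some genes of this rule are not reported here. No test was possible with 1 library per group; exact Clopper-Pearson 95% intervals were computed with scipy 1.17.1 in Python 3.11.15. Depth is not known from the lists. Alternatives varied the peak threshold, the overlap, the libraries used, the distances and the motif.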

Additional observations from a re-analysis of the deposited data

How the results depend on the processing

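No paired analysis was possible because each group had 1 library and all share replicate number 1. The number of private intervals, 396, became 114 with a -log10 q of at least 5 in the female misaligned ZT0 list and 703 when the calls of male misaligned ZT12 were left out. With that list shortened to the same length it was 576, and leaving out any of the other 6 libraries gave 396 to 446. It was 275 at a -log10 q of at least 3 in all lists, 515 when sharing needed 50% of both peaks, and 365 when a peak within 1 kb counted as shared. The share within 1 kb of a start (40.2%) was 53.5% within 5 kb. The 90 private intervals within 10 kb of another library's peak were 31 within 1 kb and 224 within 50 kb. The 7 list genes were 4 within 1 kb, 11 at any distance and 13 by RefSeq position. The E-box share (19.4%) was 63.5% for CANNTG, which includes CACGTG and was in 72.3% of all windows. It was 23.6% in windows that held the summit, 18.7% in windows of protein-coding genes and 19.3% at 20 CpG or more; these, and leaving out high background (393 intervals), were chosen after seeing the data. Few fragments per peak and 1 library per group limit the precision.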

Other observations

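Other values of the private intervals belong to no comparison above. The nearest gene was protein-coding for 275 of them (69.4%, against 74.4% of the library's shared intervals). It was a lincRNA for 25, a processed pseudogene for 20 and a microRNA for 19. A RefSeq microRNA hairpin was overlapped by 2 private peaks, at Mir6715 (-log10 q 17.2) and Mir3105 (6.17). The X chromosome held 3 private intervals (0.758%) and the mitochondrial genome 2 (0.505%), against 0.108% (1 interval) and 0.863% of shared intervals. It held 0.779% (32) of those private to male misaligned ZT12 and 0 of the 807 private to male misaligned ZT0. Chromosome X is thus no mark of the female misaligned ZT0 private set. Chromosome 11 held 39 of its intervals and chromosome 2 held 31. These last counts, like those of the non-coding kinds of gene, have no share of other intervals beside them and are no result about the set.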
